A study of Mus musculus with 17 samples.

Results

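The hippocampal libraries with an expression profile of CA pyramidal neurons were 2 of the 17 arrays of the series, the library titled FOXO TKO 433 and the library titled WT 437CA13, and the other 15 arrays had a profile of dentate granule neurons. Both were chosen by the measured levels of marker genes, low for granule neurons (Prox1, Calb1, Dock10, Plk5, Spata13) and high for CA1 (Wfs1), so every difference between the sides is a description and carries no test. The KO mice had lost Foxo1, Foxo3 and Foxo4 through floxed alleles and hGFAP-cre, a Cre driven by the human GFAP promoter, which is active in progenitors shared by neurons and glia, and the WT mice served as controls. According to the methods of the study, dentate gyrus was collected by laser capture from mice on a mixed FVB and B6 background, while the sample labels give only brain as the tissue and neither age nor sex. Of the 15 granule-profile arrays, 8 were KO and 7 WT, and each side held arrays of the mouse marks 433 and 437. The CA profile was thus represented by 1 KO and 1 WT array. The mark CA13 that 2 titles carry is not explained in the sources used here, nor is it said that a mark stands for 1 animal.

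In the hippocampus, granule neurons of the dentate gyrus receive input from the entorhinal cortex and send mossy fibers to pyramidal neurons of CA3, whose axons in turn reach CA1. The fields lie side by side, and each neuron type is known by its own transcription factors, channels and adhesion proteins: Prox1 sets granule cell identity, and Wfs1 and Pou3f1 mark CA1. FOXO proteins are transcription factors that act in the nucleus when signaling by insulin and growth factors is low.

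The CA13 mark and the profile matched for 437 and went the opposite way for 433, where the unmarked library had the CA profile and the CA13-marked library the granule profile. Taken by the CA13 mark in place of the profile, the 2 marked arrays lay outside the range of the other 15 by at least 1 on the log2 scale for 0 genes in either direction. Of 32 probe sets that were either on or off across the arrays of other marks and did not part the sides or genotypes, the 437 arrays shared the state of 31, the most of 136 pairs of arrays, and the 433 arrays that of 29, as 3 other pairs did. These 3 pairs included MS15 and MS17, of different marks and genotypes. Of the 32 probe sets, 5 were on the X or Y chromosome. Xist, the RNA of the inactive X chromosome, was at 14.18 and 12.84 in the granule-profile and CA-profile arrays of 437 but at 8.0 and 11.48 in those of 433, on a scale where the low arrays lay near 8 and the high ones above 14. The Y-linked gene Eif2s3y was between 5.13 and 5.82 in all 4, against 11.11 to 11.79 in the arrays of other marks with low Xist. The granule-profile array of 433 was thus the only array low for both genes. Whether the arrays of 433 came from 1 animal, and whether their labels were exchanged, was not tested. The Spearman correlation between the CA-profile arrays over 18193 genes was 0.961, against 0.904 to 0.941 between a CA-profile and a granule-profile array and 0.914 to 0.969 among granule-profile arrays. The log2 ratio of Gapdh signal at the 3' over the 5' end, a sign of RNA quality, was 5.92 in the library 433 and 5.85 in 437CA13, within the 5.04 to 6.41 of the granule-profile arrays.

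Levels are given as log2(signal + 32) after quantile normalization of the 17 arrays, where 1 unit is a doubling for bright genes and less than a doubling for dim ones. Array signals do not tell fewer cells of a type from less RNA per cell. A gene was counted as higher on one side when both CA-profile arrays lay beyond all 15 granule-profile arrays by at least 1, and 135 of 18193 genes were higher on the CA side (0.742%) and 123 higher on the granule side (0.676%). Pde4d, at a gap of 1.00, was the last gene inside the limit on the CA side and Serpinb9, at 0.998, the closest outside. On the granule side these were Hes6 at 1.01 and Akain1 at 0.996. The median difference was 2.35 for the CA-side genes and -2.36 for the granule-side genes, against 0.02 over all genes. Of the 258 genes, 190 had a further probe set, and for 11 of them one differed in the opposite direction by at least 0.5.

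Of the 6 markers by which the sides had been chosen, 5 passed this limit. Dock10, a guanine nucleotide exchange factor, was at 8.33 in the CA-profile KO array and 8.48 in the CA-profile WT array, and at 12.63 to 13.78 (median 13.27) in the granule-profile arrays. Prox1 was at 6.29 and 5.17 against 7.40 to 9.97 (median 8.99), and Spata13, another exchange factor, at 6.21 and 6.95 against 8.79 to 10.48 (median 9.41). Calb1, which encodes the calcium buffer calbindin, was at 12.09 and 11.89 against 13.9 to 14.56 (median 14.08), and so stayed bright on both sides. Plk5, a member of the Polo-like kinase family, was at 8.22 and 7.71 against 8.80 to 9.44, below the range by less than the limit. In the opposite direction, Wfs1, a membrane protein of the endoplasmic reticulum, was at 11.13 and 11.81 against 9.26 to 10.04 (median 9.79).

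Wider marker lists differed most in list mean for granule neuron, CA1 and shared pyramidal genes. Of 15 granule neuron genes 11 were higher on the granule side, and the mean over the list was 8.64 and 8.67 in the CA-profile arrays against 11.63 to 11.89. Calb1, Dock10 and Prox1 among these 11, and Wfs1 among the CA1 genes, were used to choose the sides. Counts and means of both lists were thus in part fixed by that choice. Of 9 measured CA1 genes 6 were higher on the CA side, with list means of 10.04 and 10.20 against 7.31 to 7.96. Beside Wfs1 and Pou3f1 these were Man1a, a mannosidase of the Golgi, Gpr161, a receptor of the cilium, Mpped1 and Spink8. Spink8, a protease inhibitor that is known as a CA1 marker, was at 9.48 and 9.55 against 6.05 to 7.88 (median 7.19).
The CA3 list was less distinct. Of 7 measured genes, Bok alone passed, a relative of Bcl2, at 12.08 and 11.23 against 8.45 to 9.88 (median 9.11). The list means of 10.06 and 9.86 still lay above the granule-profile range of 8.59 to 9.45. Grik4, a kainate receptor subunit enriched in CA3, was at 8.04 and 7.91 against 6.55 to 7.99, with overlapping sides. The CA2 list means of 10.04 and 10.17 overlapped the granule-profile range of 9.36 to 10.10, and of its 5 genes only the adhesion protein Amigo2 passed, at 9.83 and 9.53 against 6.59 to 8.44. Rgs14, a regulator of G protein signaling in CA2, was at 10.99 and 11.11 against 9.72 to 10.89, and Pcp4, a calmodulin-binding peptide, was lower in the CA-profile arrays, 13.57 and 13.71 against 14.53 to 14.81.
Genes shared by pyramidal neurons of all CA fields had list means of 11.70 and 11.69 against 8.65 to 9.67, and Neurod6, Dkk3, Nectin3 and Hs3st4 passed, 4 of 6. Crym and Tspan18 did not.

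**Figure D1:**
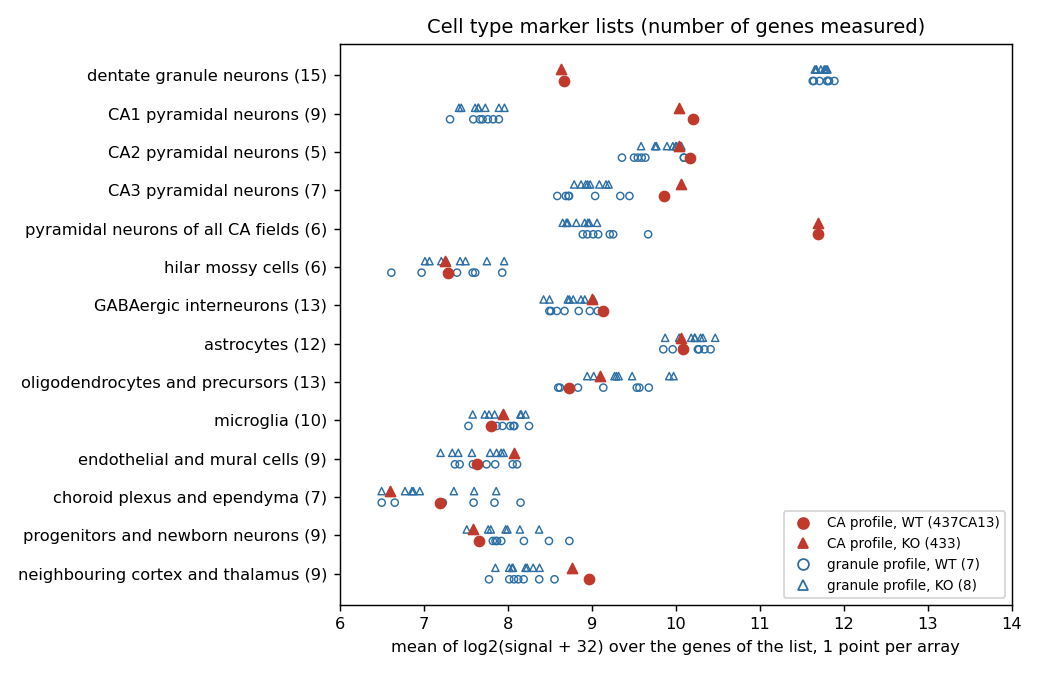
Mean log2(signal + 32) over the measured genes of each marker list, 1 point per array, red for the 2 CA-profile arrays and blue for the 15 granule-profile arrays, with circles for WT and triangles for KO. The CA-profile arrays lie at 8.64 and 8.67 for granule neuron genes, below all other arrays, and above all others for CA1, CA3, shared pyramidal and neighboring cortex and thalamus genes, while at least 1 of them lies within the granule-profile range for each remaining list.

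Among markers of the other cells that a capture could hold, the list means overlapped between the sides except for neighboring cortex and thalamus, at 8.76 and 8.97 in the CA-profile arrays against 7.78 to 8.56. No gene of the lists of hilar mossy cells (6), GABAergic interneurons (13), astrocytes (12), oligodendrocytes and precursors (13), microglia (10), endothelial and mural cells (9) or choroid plexus and ependyma (7) passed in either direction. Over all genes 0.742% passed on the CA side and 0.676% on the granule side, so lists this short can hold none without being less different than other genes. Some markers were bright on both sides: the myelin gene Mbp was at 14.50 and 13.99 in the CA-profile arrays against 13.76 to 15.22, Gad1, which makes GABA, at 11.72 and 12.04 against 11.98 to 13.05, and Gja1, the astrocyte gap junction protein, at 13.54 and 13.42 against 13.26 to 14.07. Others were near the floor on both sides. Aif1 of microglia was at 5.38 and 5.37 against 5.07 to 6.13, and Pecam1 of endothelial cells at 6.08 and 5.63 against 5.26 to 6.23. Single interneuron genes stood above the granule-profile range by less than the limit, among them Vip at 11.36 and 11.62 against 8.80 to 11.18 and Pvalb at 9.75 and 9.72 against 8.15 to 9.01. Of 9 genes of progenitors and newborn neurons, Sox11, a transcription factor of immature neurons, was higher on the granule side, at 9.02 and 9.09 against 10.36 to 11.59. The list of neighboring cortex and thalamus had 2 of 9 genes higher on the CA side, Fezf2 (10.51 and 10.42 against 6.99 to 8.79) and Nr4a2 (12.25 and 12.64 against 7.69 to 11.13), both transcription factors of cortical neurons, and the layer marker Tbr1 at 7.63 and 7.81 within 7.43 to 8.45. A further probe set of Nr4a2 differed by -0.66. The part of these genes in the differences between the sides was not tested.

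The gene highest above the granule side by mean was Neurod6, a helix-loop-helix transcription factor of pyramidal neurons, or Col11a1 with a pseudocount of 1 in place of 32. It was at 13.95 in the CA-profile KO array and 14.08 in the WT one, and at 7.86 to 10.24 (median 8.53) in the granule-profile arrays, a difference of 5.28 or 38.7-fold. The difference was 4.75 between the 437 arrays and 5.15 between the 433 arrays.
Ranked by the smaller of these within-mark differences, Col11a1, a chain of fibrillar collagen, led the CA side, at 10.79 and 10.75 against 5.08 to 6.96 (median 5.83). Neurod6 came next, and Runx1t1, a transcriptional corepressor, was the third, at 12.16 and 12.36 against 6.56 to 9.02 (median 7.62). Meis2, a homeobox transcription factor, was at 11.91 and 12.29, above a wide granule-profile range of 7.46 to 10.69 (median 8.53).
Dkk3, a secreted protein of the Dickkopf family, was at 12.39 and 12.53 against 7.53 to 9.68. Insm1, a zinc finger transcription factor of neuroendocrine cells and neuronal progenitors, was at 9.71 and 10.55 against 5.84 to 7.53. Lefty1, a secreted inhibitor of Nodal signaling, was at 10.64 and 10.56 against 5.81 to 7.89.
The rest of the 20 genes leading the CA side differed by 2.79 to 3.94. They included Sv2b, a synaptic vesicle protein, Pou3f1, a POU domain transcription factor, Rem2, a small GTPase that restrains calcium channels, Kcnq5, a potassium channel of the M-current, Klk8, a secreted serine protease, Nell1, a secreted glycoprotein, and Me1, the cytosolic malic enzyme. Klk8 was near the floor in the granule-profile arrays (median 5.38) and at 8.58 and 8.73 in the CA-profile arrays.

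The largest difference of all genes past the limit was on the granule side, that of Dsp at a pseudocount of 32 and of Glis3 at 1. Dsp, which encodes desmoplakin of the desmosome, was at 14.09 to 14.98 (median 14.60) in the granule-profile arrays, and at 8.41 and 7.43 in the CA-profile KO and WT arrays, a difference of -6.64 or 99.9-fold. The within-mark differences were -7.25 for 437 and -6.58 for 433. Dsg2, a desmosomal cadherin, was likewise low at 6.91 and 7.49 against 9.95 to 11.69, although its further probe sets ranged from -3.39 to 0.59.
Glis3, a zinc finger transcription factor, was at 5.13 and 5.98, near the floor, against a median of 10.67 and a highest value of 11.23 on the granule side, where no array came as low. Npnt, the matrix protein nephronectin, was at 6.12 and 7.19 against 10.87 to 12.45 (median 12.19). Stxbp6, a syntaxin-binding protein, was at 8.97 and 9.38 against 13.26 to 13.75.
These 3 genes had 4.35 to 5.29 less signal on the CA side. Tiam1, an activator of Rac, differed by -3.93, Plekha2, a phosphoinositide-binding protein, by -4.48, and Kcnc4, a Shaw-type potassium channel, by -4.04. Among secreted factors and receptors, Cxcl12, a chemokine, differed by -3.42, Fst, the activin antagonist follistatin, by -3.59, Bambi, a decoy receptor of the TGF-beta family, by -3.73, and Lgr6, a receptor for R-spondins, by -3.08. C1ql3 and C1ql2, secreted synaptic organizers of mossy fibers, differed by -2.90 and -3.57. C1ql2 was at 5.37 and 5.84 against 8.2 to 10.53.

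**Figure D2:**
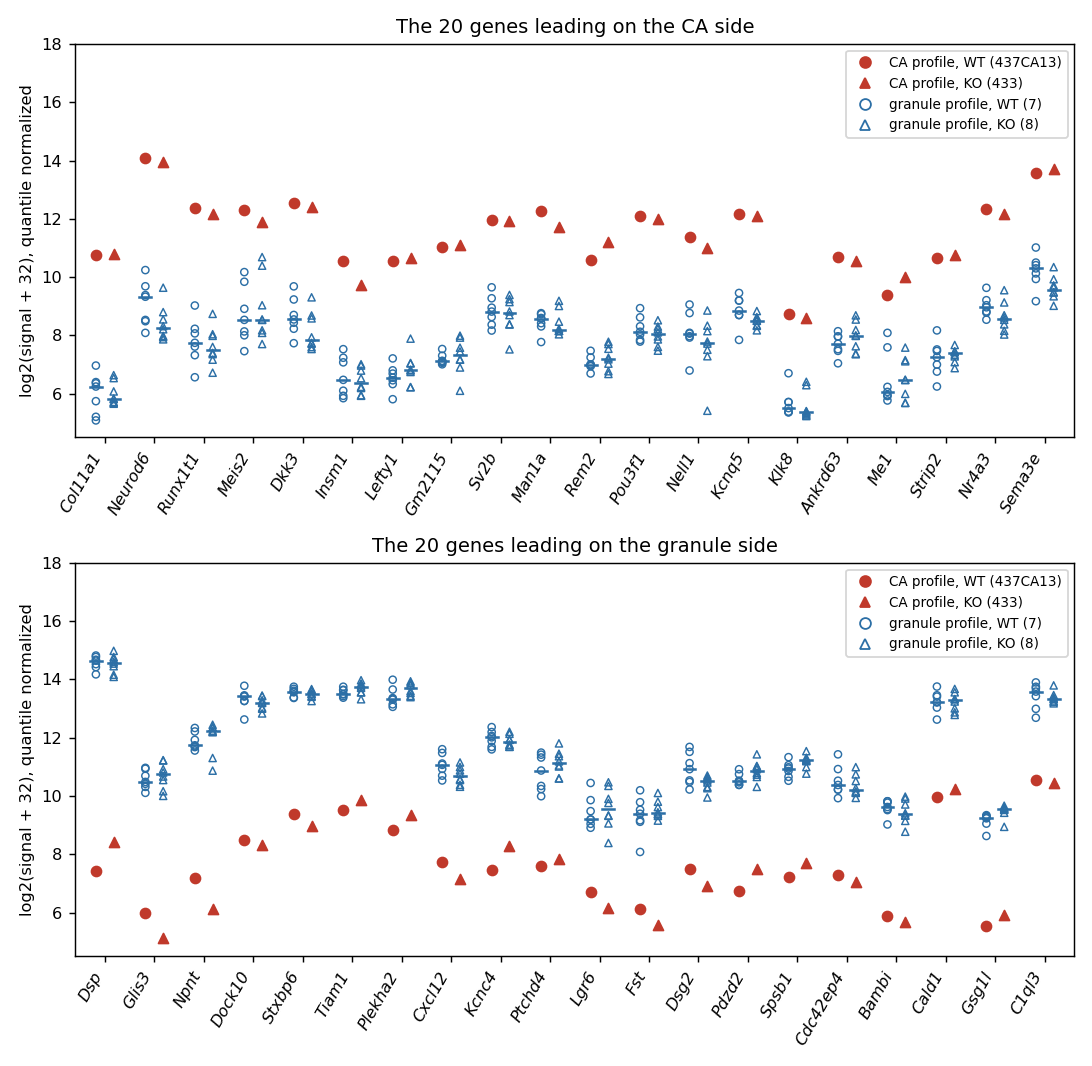
Level of the 20 genes leading each side, as log2(signal + 32) after quantile normalization, in every array, with filled red points for the 2 CA-profile arrays, open blue points for the 15 granule-profile arrays, circles for WT, triangles for KO and bars for the medians of the granule-profile arrays by genotype. The red points lie apart from all blue ones for each gene, as the limit requires, and Dsp shows the widest gap, 8.41 and 7.43 against at least 14.09.

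Within each mark, all 258 genes differed in the direction of the side means and by at least 1, which the limit itself fixes because the granule-profile array of each mark belongs to the range. By at least 2 in both marks, 82 of the 135 CA-side genes and 63 of the 123 granule-side genes differed, and by at least 3, 23 and 20. The median difference of the CA-side genes was 2.34 between the 437 arrays and 2.44 between the 433 arrays, and that of the granule-side genes was -2.39 and -2.20. Over all 18193 genes the 2 within-mark differences had a Pearson correlation of 0.518, a description across genes of 2 pairs of arrays. Genes that differed by at least 1 within both marks numbered 477 with the CA-profile array higher, 378 with it lower and 76 in opposite directions.

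**Figure D3:**
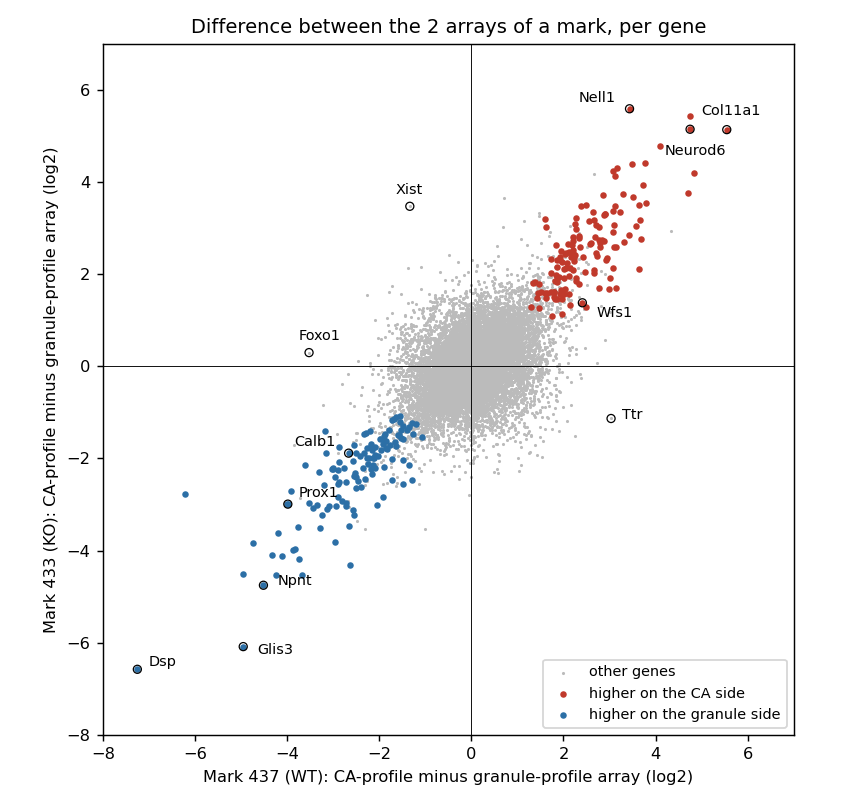
Difference between the CA-profile and the granule-profile array of mark 437 (x axis, WT) and of mark 433 (y axis, KO), in log2 units, 1 point per gene, with genes past the limit in red or blue. Neurod6 lies at 4.75 and 5.15 and Dsp at -7.25 and -6.58, while Foxo1 lies at -3.52 and 0.30 and Xist at -1.34 and 3.48.

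To show the sequence at the start of genes that passed the limit on each side, RefSeq promoters of GRCm38.p6 were read from 250 bases before to 50 after the transcription start and searched on both strands for GTAAACA, the core of the FOXO binding element, which is TGTTTAC on the other strand. Of 18109 promoters of measured genes 2.98% held the motif, of 144 promoters of the CA-side genes 2 and of 136 promoters of the granule-side genes 3, in 101 and 98 genes with a promoter in the table. Of the genes leading each side, 0 of 20 promoters held it on the CA side and 1 of 21 on the granule side, that of Cald1. Cck (chr9:121495645-121495944, minus strand), which encodes cholecystokinin, and Cald1 (chr6:34598254-34598553, plus strand), which encodes the actin-binding protein caldesmon, each held 1 match, in capitals.
Cck: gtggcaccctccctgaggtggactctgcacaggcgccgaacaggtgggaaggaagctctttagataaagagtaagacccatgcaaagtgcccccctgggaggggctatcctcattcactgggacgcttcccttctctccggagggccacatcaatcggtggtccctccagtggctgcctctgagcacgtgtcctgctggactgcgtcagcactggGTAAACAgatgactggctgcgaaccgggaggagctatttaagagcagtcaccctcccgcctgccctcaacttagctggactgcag
Cald1: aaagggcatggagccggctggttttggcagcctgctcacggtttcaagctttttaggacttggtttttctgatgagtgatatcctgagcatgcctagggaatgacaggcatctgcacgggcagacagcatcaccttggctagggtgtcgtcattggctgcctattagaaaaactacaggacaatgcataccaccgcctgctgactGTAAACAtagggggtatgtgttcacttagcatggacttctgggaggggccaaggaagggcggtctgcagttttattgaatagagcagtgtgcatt
The genes with the largest mean difference on each side at a pseudocount of 32, Neurod6 (chr6:55681214-55681513, minus strand) and Dsp (chr13:38151044-38151343, plus strand), had no match in this window.
Neurod6: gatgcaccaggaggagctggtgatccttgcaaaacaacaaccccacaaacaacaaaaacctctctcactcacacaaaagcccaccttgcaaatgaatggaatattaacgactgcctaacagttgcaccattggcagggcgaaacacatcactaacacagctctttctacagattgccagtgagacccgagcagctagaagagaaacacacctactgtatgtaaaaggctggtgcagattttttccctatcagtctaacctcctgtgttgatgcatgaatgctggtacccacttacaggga
Dsp: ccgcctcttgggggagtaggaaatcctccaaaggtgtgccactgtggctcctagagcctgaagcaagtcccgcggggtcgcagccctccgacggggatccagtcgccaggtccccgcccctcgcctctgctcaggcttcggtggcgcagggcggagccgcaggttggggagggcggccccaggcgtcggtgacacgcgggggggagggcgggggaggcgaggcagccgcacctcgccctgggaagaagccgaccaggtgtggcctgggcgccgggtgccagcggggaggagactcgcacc

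Over all genes, 0.742% were higher on the CA side and 0.676% on the granule side, the shares to set beside the functional lists below. Differences from these shares were not tested. Of 56 measured transcription factors 49 did not pass the limit, while 5.36% were higher on the CA side and 7.14% on the granule side. Neurod6, Pou3f1 and Meis2 were higher on the CA side and Prox1, Mef2c, Smad3 and Zfpm2 on the granule side. Prox1 had been used to choose the sides, so its part in that share was fixed by the choice. Mef2c, a factor of synapse development, was at 11.10 and 11.27 in the CA-profile arrays against 13.09 to 14.03 (median 13.79).
The median difference over the list was -0.05. Smad3, which carries TGF-beta signals to the nucleus, was at 11.19 and 11.26 against 12.30 to 12.97. Zfpm2, a cofactor of GATA proteins, differed by -1.55, and one of its other probe sets the opposite way.

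Of 49 potassium channel genes 46 did not pass the limit, while Kcnq5 and Kcnc2 (4.08%) were higher on the CA side and Kcnc4 (2.04%) on the granule side. Kcnq5 was at 12.10 and 12.15 against 7.84 to 9.45 (median 8.63), and Kcnc2 at 12.04 and 12.14 against 8.49 to 10.70 (median 9.67). Kcnc2 and Kcnc4 encode members of the same Shaw family, and Kcnc4 was at 8.30 and 7.46 against 11.60 to 12.37 (median 11.93). Of 32 sodium, calcium, HCN and TRP channel genes, only Trpc6, a cation channel gated by diacylglycerol, passed, at 6.81 and 6.87 against 8.14 to 10.17.
The auxiliary sodium channel subunit Scn4b was above the range by less than the limit, at 9.78 and 9.39 against 7.24 to 8.94.

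Of 38 genes of glutamate receptors and their partners, 1 was higher on the CA side and 4 on the granule side, of which 4 are partners and 1 a receptor subunit. Shisa6, an auxiliary protein of AMPA receptors, was at 13.97 and 14.03 against 12.02 to 12.77 (median 12.35). Its relative Shisa9 was at 9.69 and 10.31 against 11.90 to 13.22 (median 12.81), the opposite order.
Gsg1l and Cnih3, further auxiliary proteins of AMPA receptors, were at 5.91 and 5.55 against 8.63 to 9.67 and at 6.87 and 6.29 against 7.97 to 9.60. Grik3, a kainate receptor subunit, was at 7.97 and 8.31 against 9.34 to 10.69, with a further probe set at 0.80 the opposite way. Of 15 GABA and glycine receptor genes none passed. Gabrd, the delta subunit of extrasynaptic GABA-A receptors, was at 7.12 and 6.85, below its range of 7.91 to 9.46 by less than the limit.

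Of 22 calcium-binding proteins, S100a10, a partner of annexin A2, was higher on the CA side at 11.14 and 11.02 against 6.86 to 9.61, and Calb1 on the granule side. Calb1 had been used to choose the sides. Of 34 neuropeptides and trophic factors, 3 were higher on the CA side and 0 on the granule side. Cck was at 11.62 and 11.61 against 9.24 to 10.03 (median 9.68), and Scg5, a chaperone of prohormone convertase, at 12.08 and 12.76 against 10.26 to 11.06.
The third was Dkk3. Vgf, a secreted neuronal protein, lay above the range by less than the limit, at 13.17 and 12.40 against 10.22 to 11.74.

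Of 64 axon guidance genes 57 did not pass the limit, 4 (6.25%) were higher on the CA side, Sema3e, Plxna1, Slit2 and Robo1, and 3 (4.69%) on the granule side, Sema5a, Sema6d and Ntng1. Sema3e, a secreted semaphorin, was at 13.71 and 13.58 against 9.02 to 11.02 (median 9.93). The repellent Slit2 and its receptor Robo1 were both higher, Slit2 at 11.78 and 11.67 against 8.52 to 10.44 and Robo1 at 10.89 and 11.07 against 7.92 to 9.67.
Plxna1, a semaphorin receptor, was at 10.51 and 10.06 against 7.67 to 8.70. The transmembrane semaphorin Sema5a was at 6.67 and 6.46 against 8.91 to 9.94 and netrin-G1 (Ntng1), a membrane-anchored netrin, at 7.99 and 8.05 against 10.59 to 11.95. Sema6d differed by -2.12, with a further probe set at 0.65.
Of 66 adhesion genes 59 did not pass, while Cntnap2, Nectin3, Amigo2 and Tenm3 (6.06%) were higher on the CA side and Lrrtm4, Negr1 and Tenm1 (4.55%) on the granule side. Cntnap2, a neurexin-like protein that clusters potassium channels on axons, was at 13.62 and 13.66 against 10.33 to 11.99 (median 11.11). The teneurins, adhesion proteins of synaptic partners, parted in opposite directions, Tenm3 at 11.72 and 11.49 against 9.23 to 10.14 and Tenm1 at 11.07 and 11.12 against 12.32 to 13.46. Lrrtm4, a postsynaptic organizer, was at 7.69 and 7.57 against 9.27 to 11.58.

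Of 63 second messenger and kinase genes, 1 was higher on the CA side and 5 on the granule side. Adcy1, a calcium-stimulated adenylyl cyclase, was at 12.74 and 12.31 against 13.84 to 14.85, and Prkar2b, a regulatory subunit of protein kinase A, at 9.0 and 9.36 against 11.04 to 11.67. Rasgrf2, a calcium-dependent activator of Ras, was at 10.35 and 10.36 against 12.48 to 13.35.
Dgkh, a diacylglycerol kinase, and Camk2g, a calmodulin-dependent kinase, differed by -2.74 and -1.64. Pde4d, which degrades cyclic AMP, was at 11.18 and 10.99 against 8.70 to 9.99.

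Activity-induced genes had the largest median difference of the functional lists, 0.82 over 20 genes, with 4 higher on the CA side and 2 on the granule side. Arc, a regulator of AMPA receptor traffic, was at 9.59 and 9.57 against 6.04 to 8.16 (median 7.5). The nuclear receptors Nr4a1 and Nr4a3 were at 11.05 and 11.43 against 8.22 to 9.29 and at 12.16 and 12.34 against 8.03 to 9.63.
Dusp6, a phosphatase of ERK, was at 9.29 and 9.48 against 5.41 to 7.38. Jun, a component of AP-1, went the opposite way, at 9.11 and 9.66 against 11.50 to 12.15 (median 11.82), as did the antiproliferative gene Btg2, at 7.39 and 7.49 against 8.69 to 9.47. Of 23 genes of the cytoskeleton and axon, Stmn2, a tubulin-binding protein of growing axons, Spock1, a proteoglycan, and Cpne7, a copine, were higher on the CA side, and Marcksl1, an actin regulator, was higher on the granule side, at 8.34 and 8.39 against 10.55 to 12.31.

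**Figure D4:**
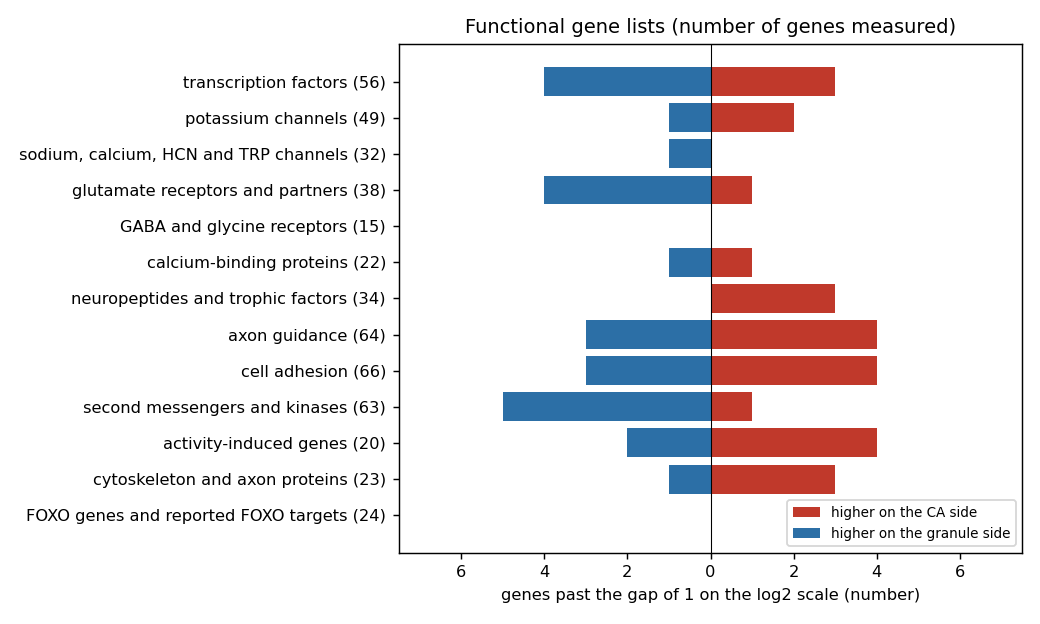
Number of genes of each functional list (x axis) whose 2 CA-profile arrays lay beyond all 15 granule-profile arrays by at least 1 on the log2 scale, to the right in red for genes higher on the CA side and to the left in blue for genes higher on the granule side. Second messengers and kinases had 1 and 5 genes, activity-induced genes 4 and 2, and GABA and glycine receptors and FOXO targets none. Over all genes the shares were 0.742% and 0.676%.

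The CA-profile arrays, 1 of each genotype, differed from each other no more than granule-profile arrays did. Over all genes the standard deviation of their difference was 0.50, against 0.460 to 0.876 (median 0.572) over 105 pairs of granule-profile arrays, and 93.8% of genes differed by at most 1. All 135 CA-side genes and 117 of the 123 granule-side genes were within 1 of each other. Genes over level 8 in one of the arrays that were highest in the KO library 433 were Mndal, an interferon-inducible gene, at 10.55 against 5.92 in 437CA13, Pttg1, which encodes securin, at 13.74 against 9.39, and Fmn2, an actin nucleator, at 10.62 against 7.28.
Pttg1 also varied among granule-profile arrays, from 8.06 to 13.71. In Pttg1 and Fmn2 the 2 arrays of 433 lay together, at 13.74 and 13.27 and at 10.62 and 11.08, but Mndal was at 6.89 in the granule-profile array of 433, and its 10.55 in the CA-profile one lay above the highest granule-profile array, 8.76. In the opposite direction Ttr, the transthyretin gene of the choroid plexus, was at 5.98 in 433 and 10.59 in 437CA13, within a granule-profile range of 5.38 to 15.22. Rgs4, a regulator of G protein signaling, was at 9.71 and 11.53 against 10.43 to 11.60. With 1 array per genotype these differences have no replicate check.

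Foxo1, the targeted gene with a clear loss of signal in KO, was low in both KO profiles. By its brightest probe set it was lower in the CA-profile WT array than in any granule-profile WT array. The brightest Foxo1 probe set was at 12.33 to 13.95 (median 13.27) in the 7 granule-profile WT arrays, at 9.82 in the CA-profile WT array, at 7.35 to 9.44 (median 7.95) in the 8 granule-profile KO arrays and at 8.52 in the CA-profile KO array. In WT the CA-profile array was thus 3.52 below the granule-profile array of its own mark. By the further Foxo1 probe sets this difference was -0.99, -1.49 and 0.13, so its size depended on the probe set. The last of these was dim, at 7.32 in the CA-profile WT array against 5.54 to 7.19 in granule-profile WT arrays. On the granule side KO minus WT was -5.12 (standard error 0.30, adjusted p = 6.38e-08 from limma). Between the CA-profile arrays it was -1.30, and the difference of differences, 3.82 (standard error 0.86), had an unadjusted p of 0.000329 and an adjusted p of 0.39 from limma, in a fit where the single CA-profile arrays were assumed to vary like the others.
Foxo3 was at 10.63 and 10.86 in the CA-profile KO and WT arrays against 9.88 to 11.30 on the granule side, and Foxo4 at 5.32 and 6.25 against 5.30 to 7.08, both without separation of the sides. By genotype on the granule side, Foxo3 was bright in both, at 9.88 to 10.98 (median 10.31) in KO and 10.34 to 11.30 (median 10.83) in WT. KO minus WT was -0.42 (standard error 0.18) for Foxo3 and 0.64 (standard error 0.24) for the dim Foxo4, and neither passed the adjusted limit of limma. A still dimmer probe set of Foxo4 went the opposite way, at -0.57 (standard error 0.18). It was at 5.27 to 5.61 in KO and 5.49 to 7.04 in WT, and did not pass either. Of 24 FOXO genes and reported FOXO targets, 0 passed the limit between the sides, beside 0.742% and 0.676% of all genes. The limit pools KO and WT granule-profile arrays, so genes lowered in KO have a wide range and pass less easily. Foxo1, at 9.82 in the CA-profile WT array, was below all granule-profile WT arrays (from 12.33) but not below the KO ones (from 7.35). Sesn3, a sestrin that restrains mTORC1, was at 9.53 and 9.66, below its range of 10.10 to 10.93 by less than the limit. Pik3ip1, an inhibitor of phosphoinositide 3-kinase, was at 8.01 in the CA-profile KO array and 8.81 in the WT one, against 8.26 to 9.23 in granule-profile KO and 9.33 to 10.32 in granule-profile WT arrays. Its difference on the granule side was -1.0 (standard error 0.16, adjusted p = 0.0523 from limma), which passed with the deposited scaling alone, without dim probe sets, with the array series as a block and with array weights.

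On the granule side, which is the comparison of genotypes with replicates, 7 of 45037 probe sets passed an adjusted p of 0.05 from limma (0.0155%), and 1491 had an unadjusted p under 0.05 (3.31%). The 3 lower in KO were of Foxo1, and the 4 higher were 3 of Prm1, the sperm protamine, and 1 of Gm34303, a pseudogene. With the array series as a block 10 passed, of which the further ones were of Pik3ip1, Defa3 and Tmem255a, and in the larger array series alone 4 passed, those of Foxo1 and 1 of Spata13, while Prm1 and Gm34303 did not. Gm34303 did not pass either with the unmarked array of 433 in place of the CA13-marked one. For the genotype labels of the CA side these genes served as a check. The Prm1 probe set with the widest range was at 9.85 in the CA-profile KO array and 5.13 in the WT one, against 5.07 to 5.14 in granule-profile WT arrays and 9.20 to 11.21 in granule-profile KO arrays other than MS15, which was at 5.12. Gm34303 was at 8.50 in the CA-profile KO array, below the granule-profile KO arrays (10.67 to 12.03) and above most granule-profile WT arrays (median 7.04, highest 10.84). It thus did not place that array with the KO arrays. In the CA-profile WT array it was at 6.38, within the granule-profile WT range of 6.15 to 10.84.

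**Figure D5:**
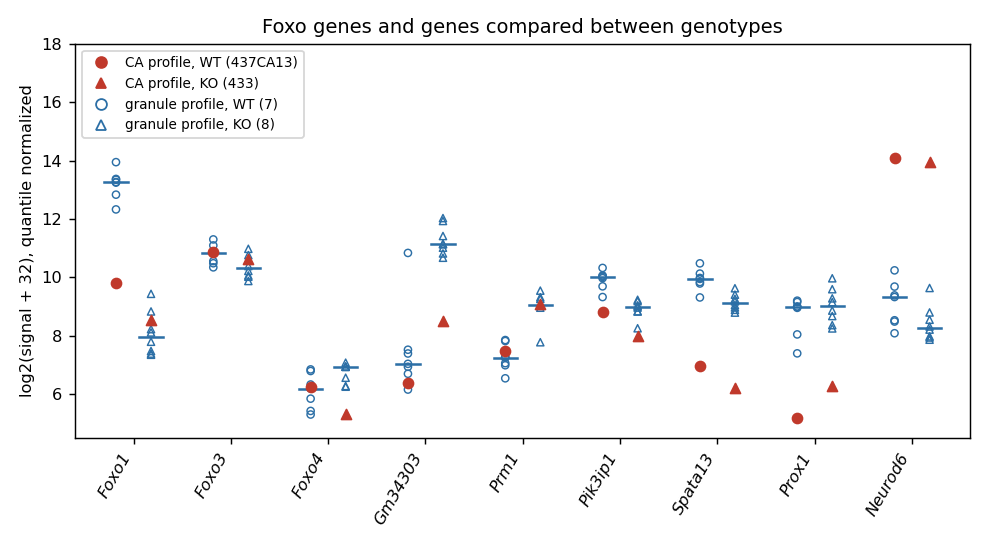
Level of the Foxo genes, of genes compared between genotypes and of 2 field markers, as log2(signal + 32) after quantile normalization, in every array, with filled red points for the 2 CA-profile arrays, open blue points for the granule-profile arrays, circles for WT, triangles for KO and bars for medians, each gene by its brightest probe set. Foxo1 in the CA-profile WT array, 9.82, lies between the granule-profile WT arrays (12.33 to 13.95) and the granule-profile KO arrays (7.35 to 9.44).

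None of the 258 field genes passed the genotype test on the granule side. At an unadjusted p under 0.05 from limma, 4 of the 135 CA-side genes were higher and 5 lower in KO, and 9 of the 123 granule-side genes were higher and 11 lower, or 6.67% and 16.3% of them. The share over all probe sets, dim ones and those without a symbol included, was 3.31%. It is not a share over genes read by their brightest probe set, which is not given. The difference between these shares was not tested, since the members had been chosen on the same arrays. The median difference between KO and WT was -0.04 for the CA-side and -0.03 for the granule-side genes.
Spata13 had one of the smallest p-values of these genes, with KO at 8.79 to 9.63 (median 9.11) and WT at 9.31 to 10.48 (median 9.95), a difference of -0.78 (standard error 0.16, adjusted p = 0.365 from limma). It passed in 2 of 11 settings, with adjusted p-values over all settings from 0.0328 to 1.00. In the CA-profile arrays Spata13 was at 6.21 and 6.95. For the difference of genotype effects between the sides, 0 of 45037 probe sets passed by limma (0.0%) and 1629 had an unadjusted p under 0.05 (3.62%), in a fit where the CA side had 1 array per genotype and so no spread of its own.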

How the data were processed

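Levels were taken from the table the authors deposited, with 1 signal intensity per probe set on a linear scale for 17 Affymetrix mouse arrays. The submitters' processing notes name MAS5, and the methods of the study name RMA, whose log scale the values do not have. Of 45101 probe sets 64 controls were left out. Of 45037 analysed, 34945 had 1 gene symbol in the platform annotation, 932 several and 9160 none, and 34741 were found by Entrez ID in a RefSeq gene table. A pseudocount of 32 was added, log2 taken and the arrays quantile normalized (limma 3.58.1, R 4.3.3). Each of 18193 genes was read by its brightest probe set. The number of arrays limits the precision.

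Genotype on the granule side (8 KO, 7 WT) and its interaction with side were tested by limma with eBayes, an intensity trend and Benjamini-Hochberg adjustment, the former in place of the SAM of the study. Labels do not say whether some replicates differ only technically. Xist was at 7.32 to 14.54 in granule-profile KO arrays and 6.96 to 14.34 in WT ones. Eif2s3y was at 5.22 to 11.79 and 5.13 to 11.68. The arrays of a genotype were thus not all from 1 animal, and the fits did not adjust for sex. The steps were tested on simulated data.

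Members, sides, lists of genes and the rule by which genes are named (the 6 markers, Foxo genes, 20 leading genes per side, up to 8 genes of each list, 10 per direction between the CA-profile arrays and up to 10 per direction called by genotype) were chosen with earlier results of these data known. Genes past the limit that the rule does not reach, and Xist, Eif2s3y and Pik3ip1, were named after their values were seen. Alternatives varied the pseudocount (1 and 128), scaling, dim probe sets, limit, probe set choice, array series, RNA quality, array weights and left-out arrays.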

Additional observations from a re-analysis of the deposited data

Results flagged for a closer look

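Among the 6 markers, the Foxo genes and the genes leading each side, 96 groups of a gene and a genotype on the granule side were examined for 1 array apart from the rest by Dixon's test, and 6 had one, where chance gives about 1 in 20 groups. Nell1 was at 5.41 in the KO 433 CA13 array, against 7.28 to 8.85 in the other KO arrays. The same array had Gsg1l at 8.94, against 9.43 to 9.67. In the WT 437 array Gsg1l was at 8.63, against 9.05 to 9.34 in the other WT arrays, and Bambi at 9.02, against 9.52 to 9.82. Klk8 was at 6.70 in the WT 385 array, against 5.36 to 5.71, and C1ql3 at 13.80 in the KO 903 array, against 13.18 to 13.46.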

How the results depend on the processing

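Differences between the sides kept their direction for all 45 genes examined (the 6 markers and the genes leading each side) in the settings of pseudocount, scaling, dim probe sets, probe set choice, array series, left-out arrays, single genotypes and the CA13 mark, while the other limits and the within-mark differences were run for counts alone. Where arrays were only left out, the limit itself fixed the direction of the genes past it. With sides by the CA13 mark, 437CA13 stayed among the marked arrays, and the sizes of all 45 differences moved, that of Col11a1 to 1.86 from 4.78. At a pseudocount of 1 the largest mean differences were those of Glis3 (-7.08, against -6.85 for Dsp) and Col11a1 (5.98, against 5.40 for Neurod6). The 135 CA-side and 123 granule-side genes became 104 and 94 with the larger pseudocount and stayed within 1.5 times in the settings of pseudocount, scaling, dim probe sets, probe set choice, array series and without the CA13-marked array of 433. Without the library 433 or without 437CA13 in turn, 173 to 186 genes were higher on the CA side and 176 to 185 on the granule side. With a limit of 0 they numbered 1317 and 908, with a limit of 2, 27 and 37, and from within-mark differences alone, the replicate block by mark, 477 and 378. In settings chosen after seeing the data, the counts were 234 and 238 within WT, 242 and 251 within KO, and 0 and 0 with sides taken by the CA13 mark.

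Genotype on the granule side gave 4 probe sets in the larger array series alone and 12 with array weights, against 7. The interaction gave 9 with a pseudocount of 1, 16 with the larger pseudocount and 1 with the deposited scaling, against 0. Where states of probe sets were parted by at least 3, the 437 arrays differed in 0.0% of 10 probe sets, against 3.12% of 32, and the 433 arrays in 10%, a share that 14 pairs had, against 9.38%. Of these 10 probe sets 5 were on X or Y, and the arrays MS15 and MS17, of different marks, shared the state of all 10. The causes were not tested. Dim genes limit precision, since differences near the floor depend on the pseudocount. No paired analysis beyond the marks 433 and 437 was possible because other marks have 1 array.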
